A study of Mus musculus with 6 samples.

Results

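The genes described here encode surface receptors through which natural killer (NK) cells sense their targets, together with a pair of adaptors. They comprise the lectin-like receptors of the killer cell lectin-like (Klr) subfamilies, the SLAM family, the receptors that bind nectins and nectin-like proteins, and Ncr1, Cd160, Lag3, Havcr2 and Fcgr3. Members were chosen by gene symbol with earlier results of these data known, by a rule that uses no measured value, and 42 of the 19943 genes tested qualified. One of them, Cd244, carries its current symbol Cd244a in the platform annotation, so that 41 matched by symbol alone. Each of the 42 was read by 1 probe set. Total RNA of mouse NK cells was hybridised to 6 Affymetrix arrays. IL-18 generated cells had 3 arrays, as did unstimulated cells. The labels give all 6 samples the same growth protocol, in which cells taken on NK1.1 were cultured overnight with IL-18 (25 ng/ml) and 300 IU of IL-2. The IL-18 generated cells were then sorted as live c-kit+ CD11b- cells, and the unstimulated cells as live c-kit- CD11b+ cells, with NK1.1+ and CD3- common to both gates. The labels used here do not name a strain, genotype, age or tissue, and they do not say separately whether the unstimulated cells were cultured or received IL-2. Stimulus and sort gate changed together, with any difference in culture, and cannot be told apart in any result below.

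An NK cell is held back by inhibitory receptors, which mostly recognise MHC class I or related self molecules, and is triggered by activating receptors for infected, stressed or antibody-coated cells. In mice the Ly49 receptors (Klra genes) and the CD94 and NKG2 receptors (Klrd1 and Klrc genes) read MHC class I, while the NKR-P1 receptors (Klrb1 genes) read lectin-like Clr proteins. SLAM receptors mostly bind their own kind on neighbouring cells and signal through the small adaptors SAP and EAT-2. CD226, TIGIT and CD96 share nectin family ligands, with CD226 activating and TIGIT inhibitory.

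Each value is a log2 difference from that probe set's 6-array median. It holds no expression level, and a small change can also come from a gene that neither group expressed. For the same reason the presence of NK cell markers could not be checked as a level. Centring on the median also makes the middle pair of the 6 ordered values equal in size and opposite in sign. Changes are log2 differences, IL-18 generated minus unstimulated, given ± SE from limma with 3 arrays per group. The words rose and fell are kept for genes with an adjusted p below 0.05 (limma, Benjamini-Hochberg over all 19943 genes). Preparations were independent per the series' design text, and no pairing of them is stated. The genes of the gates that differed followed the labels, Kit with a change of 2.79 ± 0.13 and Itgam, which encodes CD11b, with -5.32 ± 0.11. The genes of the gates common to both groups differed as well, with Klrb1c (NK1.1) lower, at -2.03 ± 0.11, and the CD3 chain genes Cd3d (1.11 ± 0.14), Cd3e (1.26 ± 0.21) and Cd3g (1.60 ± 0.20) higher in the IL-18 generated cells. The number of arrays limits the precision.

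Most of these receptor genes were lower in the IL-18 generated cells. Of the 42, 30 fell, 5 rose and 7 did not pass, with a median change of -0.71 against -0.06 over all genes tested. The share that fell, 71.4%, stood beside 16.7% of all genes tested, and the share that rose, 11.9%, beside 19.7%. By at least 2-fold, 15 members fell and 1 rose, where 3.24% of all genes fell and 3.62% rose by that much. The 2 groups of arrays were fully separated for 32 members (76.2%), beside 48.6% of all genes. The IL-18 arrays were the lower ones for 28 of these (beside 25.7% of all genes) and the higher ones for 4 (beside 22.9%). Over the 42 members, arrays of different groups lay 1.149 to 1.383 apart (root mean square difference, log2). IL-18 arrays lay 0.245 to 0.363 from each other and unstimulated arrays 0.247 to 0.322, so each array was closer to its own group. Unstimulated replicate 2 lay farthest from the IL-18 arrays (1.313 to 1.383) and had the lowest limma array weight over all genes (0.46). Without it, 28 members and 4408 of all genes fell, against 30 and 3332 with all arrays. The deepest fall was in Klrg1 and the highest rise in Tigit. The sort antigen NK1.1 is encoded by a member, Klrb1c, and without it 29 fell and 5 rose. The count of members that rose was less stable, at 3 without IL-18 replicate 1 or 3 or unstimulated replicate 3. In bulk RNA, fewer cells that express a gene and less RNA of it per cell cannot be told apart.

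**Figure D1:**
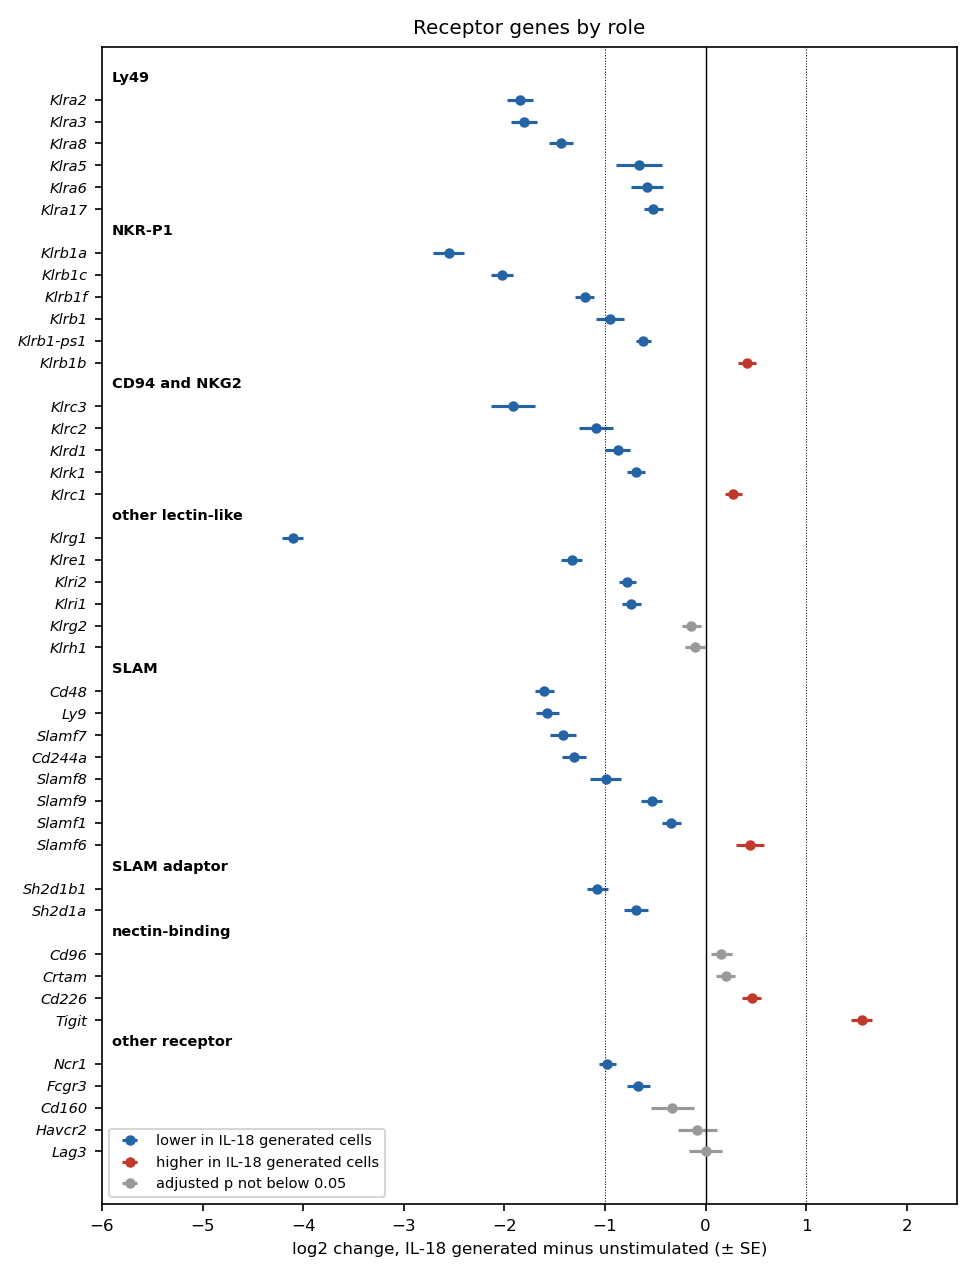
Log2 change (IL-18 generated minus unstimulated, horizontal axis) of the 42 receptor and adaptor genes, grouped by role, with SE from limma (3 arrays per group); dotted lines mark a 2-fold change. Most points lie left of 0, all 4 nectin-binding receptors lie right of it, and the 5 genes that rose are Klrb1b, Klrc1, Slamf6, Cd226 and Tigit.

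Klrg1, an inhibitory receptor for cadherins that marks terminally mature NK cells, stood apart from the rest. Its values were -1.94, -1.97 and -1.95 in IL-18 generated cells, against 1.94, 2.37 and 2.13 in unstimulated cells. The change was -4.10 ± 0.10, or 17.2-fold lower (limma adjusted p 5.2e-09). The IL-18 arrays were close together (SD 0.013, n = 3) and the unstimulated arrays less so (SD 0.21, n = 3). Of the other lectin-like genes outside the larger subfamilies, Klre1, Klri1 and Klri2 fell too. KLRE1 forms dimers with the products of Klri1 and Klri2. Klre1 read -0.65, -0.76 and -0.54 in IL-18 generated cells and 0.54, 0.88 and 0.63 in unstimulated cells, a change of -1.33 ± 0.10. Its partners changed by less, Klri1 by -0.74 ± 0.10 and Klri2 by -0.78 ± 0.09. All 3 were lower on each IL-18 array than on any unstimulated one, as were 25.7% of all genes tested. Klrg2 (-0.14 ± 0.10) and Klrh1 (-0.11 ± 0.10) did not pass.

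The 6 Ly49 genes measured alone all fell, with a median of -1.05, but by unequal amounts. Of all genes tested, 16.7% fell. Klra3, which encodes the inhibitory receptor Ly49C, read -0.94, -1.17 and -0.70 in IL-18 generated cells, against 0.70, 1.09 and 0.80 in unstimulated cells (change -1.80 ± 0.13). Klra8, which encodes Ly49H, the activating receptor for a mouse cytomegalovirus protein, read -0.91, -0.99 and -0.53 in IL-18 generated cells and 0.56, 0.79 and 0.53 in unstimulated cells (-1.44 ± 0.12). Probe sets named for an inhibitory and an activating member were thus both lower. Klra3 and Klra8 also share probe sets that carry several symbols, so their readings may not be separate. Klra2, which encodes Ly49B, a receptor known from myeloid cells, read -0.80, -0.79 and -0.97 in IL-18 generated cells and 0.85, 0.79 and 1.31 in unstimulated cells (-1.84 ± 0.13). Klra17 (Ly49Q, also known from myeloid and plasmacytoid cells) fell by less, with -0.52 ± 0.09.

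Klra5 and Klra6, which encode Ly49E and Ly49F, had the weakest evidence of the family. Klra5 read -0.49, -0.84 and 0.10 in IL-18 generated cells, against 0.23, 0.63 and -0.10 in unstimulated cells, and the groups overlapped by replicate 3 of each. Its change of -0.66 ± 0.23 had a limma adjusted p of 0.0453, which lay between 0.00396 and 0.156 over 14 alternatives and missed 0.05 in 7 of them. Klra6 overlapped between groups as well and changed by -0.58 ± 0.16. Its call was lost without IL-18 replicate 2 or without unstimulated replicate 2 or 3, where the highest limma adjusted p was 0.0687. Several Ly49 genes are close copies, so a probe set may read more than the gene it is named for and single values are uncertain. Klra3, Klra5, Klra6 and Klra8 also occur in probe sets that carry several symbols, and Klra2 and Klra17 do not.

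The NKR-P1 genes split in direction. Klrb1a, which encodes the activating-type receptor NKR-P1A, read -1.13, -1.12 and -1.71 in IL-18 generated cells, against 1.12, 1.43 and 1.13 in unstimulated cells, a change of -2.55 ± 0.15 (5.86-fold lower). Klrb1c, the gene of the activating receptor NKR-P1C and of the NK1.1 antigen on which both groups were sorted as positive, read -1.09, -0.87 and -1.05 in IL-18 generated cells and 0.95, 1.25 and 0.87 in unstimulated cells (-2.03 ± 0.11). Klrb1f, an activating-type receptor, read -0.67, -0.48 and -0.76 in IL-18 generated cells and 0.48, 0.56 and 0.66 in unstimulated cells (-1.20 ± 0.09). Klrb1, which encodes NKR-P1G, changed by -0.95 ± 0.14 and the pseudogene Klrb1-ps1 by -0.62 ± 0.07. Klrb1b encodes NKR-P1B, the inhibitory receptor for Clr-b, and it was the NKR-P1 gene that rose. Its values were 0.29, 0.07 and 0.22 in IL-18 generated cells, against -0.33, -0.07 and -0.24 in unstimulated cells, a change of 0.41 ± 0.09 (limma adjusted p 0.00524). Each of these 6 genes had separate groups, as did 48.6% of all genes tested, and the Klrb1b call held in all 14 alternatives. NKR-P1 genes too are paralogs whose probes may cross-read.

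Klrb1a, Klrb1c and Klrb1b neighbour each other on chromosome 6 with Klrb1 among them, and their promoters are shown because these paralogs changed in opposite directions. Sequences are RefSeq windows of build GRCm38.p6, from 250 bases before to 50 after the annotated start, and 33 of the 42 members had one. All 3 lie on the minus strand, at chr6:128622885-128623184 for Klrb1a, chr6:128826266-128826565 for Klrb1b (the first of the 2 windows listed) and chr6:128788592-128788891 for Klrb1c. Capitals mark matches, on either strand, to the motifs searched, which here are Runx (TGTGGT) and Ets (GGAAGT).
Klrb1a: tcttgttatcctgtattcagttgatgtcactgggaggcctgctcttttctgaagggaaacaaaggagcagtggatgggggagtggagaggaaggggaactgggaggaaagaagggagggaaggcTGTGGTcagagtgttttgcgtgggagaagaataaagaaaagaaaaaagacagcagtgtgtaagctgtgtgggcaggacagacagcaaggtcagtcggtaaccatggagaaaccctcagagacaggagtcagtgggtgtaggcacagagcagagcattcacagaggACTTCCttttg
Klrb1b: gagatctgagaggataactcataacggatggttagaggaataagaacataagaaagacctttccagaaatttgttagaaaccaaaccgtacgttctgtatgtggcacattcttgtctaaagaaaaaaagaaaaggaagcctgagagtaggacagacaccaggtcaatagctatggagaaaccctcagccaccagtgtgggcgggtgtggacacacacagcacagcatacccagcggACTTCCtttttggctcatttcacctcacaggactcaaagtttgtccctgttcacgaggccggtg
Klrb1c: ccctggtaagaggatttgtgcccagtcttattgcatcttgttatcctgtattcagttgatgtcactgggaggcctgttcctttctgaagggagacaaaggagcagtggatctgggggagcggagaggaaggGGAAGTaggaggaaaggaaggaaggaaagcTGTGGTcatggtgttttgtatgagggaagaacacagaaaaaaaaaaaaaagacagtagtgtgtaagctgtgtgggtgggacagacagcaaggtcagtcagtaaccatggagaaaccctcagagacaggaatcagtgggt

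In a global alignment the windows of Klrb1a and Klrb1c, the pair that fell most in the family, were identical at 69.4% of aligned columns. The Klrb1b window matched that of Klrb1a at 46.6% and that of Klrb1c at 47.9%. Pairs from different families among the promoters shown here gave 45.0% to 51.0%. Aligned as whole windows, then, Klrb1b matched these paralogs no better than windows of different families matched each other. Identity did not follow direction, however, since the Klrb1b window matched those of Klrb1 (59.1%) and Klrb1f (59.2%), genes that fell. Windows are placed by the annotated start, and a shifted start lowers such an identity. The letters atggagaaaccctcag occur in all 3 windows shown, but further from the window's end in Klrb1b. Whole-window identity therefore does not measure how alike the promoters of Klrb1b and its paralogs are. The Runx letters occur in the windows of Klrb1a and Klrb1c and not in those of Klrb1b, Klrb1 and Klrb1f, while the Ets letters occur in all 3 windows shown. A match is a description of letters and not of a bound site.

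The CD94 and NKG2 genes also moved in both directions. Klrd1, the CD94 chain shared by the NKG2A, C and E receptors for Qa-1, fell (-0.87 ± 0.13), as did Klrk1, which encodes the stress ligand receptor NKG2D (-0.69 ± 0.09). Klrc2 and Klrc3 encode the activating chains NKG2C and NKG2E. Klrc3 read -1.75, -1.18 and -0.63 in IL-18 generated cells, against 0.63, 0.83 and 0.72 in unstimulated cells, a change of -1.92 ± 0.22. The IL-18 arrays were widely spread for Klrc3 (SD 0.56, n = 3, against 0.10 in unstimulated arrays). Klrc2 read -0.73, -0.42 and -0.29 in IL-18 generated cells and 0.52, 1.01 and 0.29 in unstimulated cells (-1.09 ± 0.17). Klrc1, which encodes the inhibitory chain NKG2A, rose slightly. It read 0.08, 0.07 and 0.14 in IL-18 generated cells, against -0.18, -0.07 and -0.30 in unstimulated cells, a change of 0.28 ± 0.08 (limma adjusted p 0.022). Each of the 5 genes had separate groups, as did 48.6% of all genes tested. The Klrc1 call, however, was lost without any 1 of 5 arrays, all except unstimulated replicate 2. Its limma adjusted p ran from 0.00784 to 0.0821 over the 14 alternatives. Klrc2 and Klrc3 are close copies, so their separate values are uncertain.

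Klrc3, Klrc2 and Klrc1 follow each other on chromosome 6 in that order, and their promoters are shown because Klrc1 rose where its neighbours fell. The minus-strand windows lie at chr6:129678924-129679223 for Klrc1, chr6:129660547-129660846 for Klrc2 (the first of 2 listed) and chr6:129643239-129643538 for Klrc3, in GRCm38.p6. Capitals mark Runx letters as above, the AP-1 motif (TGANTCA) and the E-box (CACGTG).
Klrc1: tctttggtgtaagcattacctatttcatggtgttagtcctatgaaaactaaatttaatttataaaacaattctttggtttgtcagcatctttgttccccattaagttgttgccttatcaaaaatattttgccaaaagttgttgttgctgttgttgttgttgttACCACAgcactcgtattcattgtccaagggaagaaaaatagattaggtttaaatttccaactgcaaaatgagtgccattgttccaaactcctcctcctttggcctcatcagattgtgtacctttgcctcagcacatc
Klrc2: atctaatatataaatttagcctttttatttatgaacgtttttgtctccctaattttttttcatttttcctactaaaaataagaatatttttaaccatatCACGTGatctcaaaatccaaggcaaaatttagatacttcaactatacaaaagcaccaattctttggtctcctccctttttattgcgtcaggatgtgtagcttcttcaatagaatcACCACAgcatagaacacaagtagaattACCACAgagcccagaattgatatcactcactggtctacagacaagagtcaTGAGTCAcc
Klrc3: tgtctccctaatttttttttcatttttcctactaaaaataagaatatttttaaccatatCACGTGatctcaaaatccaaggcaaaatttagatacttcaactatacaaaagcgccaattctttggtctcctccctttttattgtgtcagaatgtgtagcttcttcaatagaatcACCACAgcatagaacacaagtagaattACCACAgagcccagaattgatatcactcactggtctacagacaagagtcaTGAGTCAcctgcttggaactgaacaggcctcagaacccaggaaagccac

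The windows of Klrc2 and Klrc3 were identical at 75.1% of aligned columns, and the Klrc1 window matched them at 50.3% and 52.3%. Pairs from different families gave 45.0% to 51.0%, as above. The Klrc3 window opens with letters that lie further inside that of Klrc2, so end gaps lower the identity of that pair. Whole-window identity does not measure how alike these promoters are either. The stretch that Klrc2 and Klrc3 share holds the same 4 matches in the same order. They are an E-box, a pair of Runx matches and an AP-1 match. The Klrc1 window holds 1 Runx match. Across the 33 members with a promoter, Runx letters occurred in 14 (42.4%, against 16.8% of all 32851 promoter windows), and AP-1 letters in 9 (27.3%, against 7.81%). The other motifs were searched in the same way. Ets letters occurred in 9 members (27.3%, against 23.8%) and the E-box in 5 (15.2%, against 7.15%). T-box letters (AGGTGT) occurred in 3 (9.09%, against 13.7%), STAT letters (TTCNNNGAA) in 3 (9.09%, against 8.3%) and NF-kB letters (GGGNNTTCC) in 1 (3.03%, against 5.82%). Members were counted by the first window of each gene and the background by all windows, so the shares differ in unit. Of the 33 members with a promoter, 24 fell. Those that fell made up 9 of the 14 with Runx letters, 8 of 9 with AP-1, 7 of 9 with Ets and 5 of 5 with the E-box. They made up 2 of 3 with T-box letters, 2 of 3 with STAT letters and 1 of 1 with NF-kB letters. These shares were not tested, and the members include paralogs whose promoters share sequence.

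**Figure D2:**
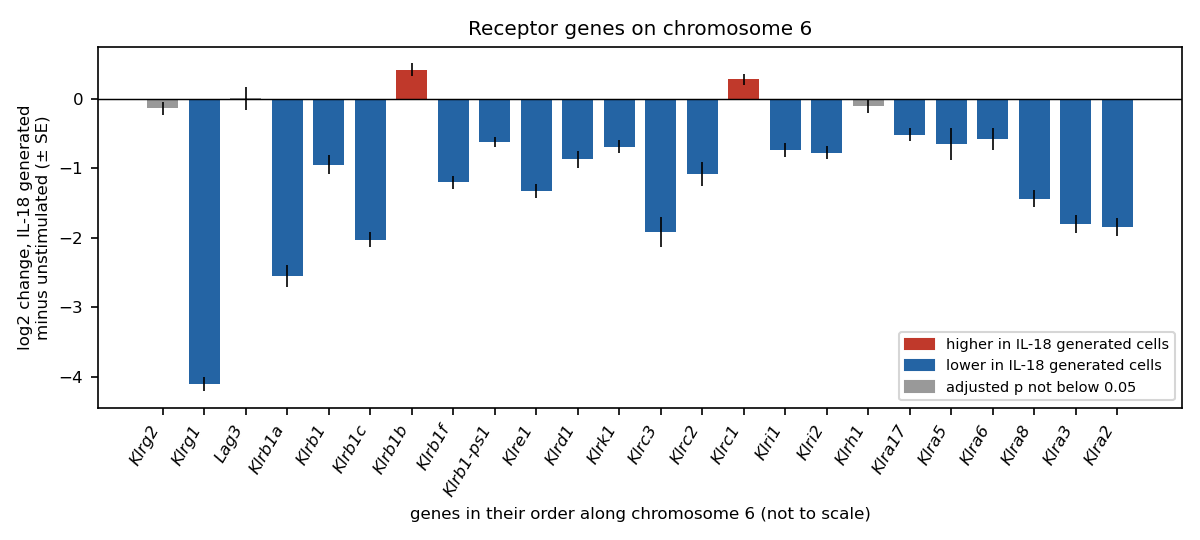
Log2 change (IL-18 generated minus unstimulated, vertical axis; bars with SE, 3 arrays per group) of the 24 member genes on chromosome 6, in their order along it and not to scale. Klrb1b and Klrc1 are the 2 genes that rose, each with neighbours that fell, and 19 of the 24 fell, beside 16.7% of all genes tested.

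Of the 24 members on chromosome 6, 19 fell, 2 rose (Klrb1b and Klrc1) and 3 did not pass (Klrg2, Lag3 and Klrh1). The shares that fell (79.2%) and rose (8.33%) stood beside 16.7% and 19.7% of all genes tested. Gene order was taken from RefSeq. The 10 members on chromosome 1, where the SLAM genes lie together with Fcgr3 and Sh2d1b1, had 9 falls and 1 rise. The median change was -0.83 on chromosome 6 and -1.03 on chromosome 1.

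Among the SLAM family genes that are members, 7 of 8 fell and Slamf6 rose, with a median of -1.15. The share that fell was 87.5%, beside 16.7% of all genes tested. Cd84, another SLAM family gene, did not match the rule and is given with the signalling partners. CD244 (2B4) and its ligand CD48 fell together. Cd48 read -0.75, -1.02 and -0.71 in IL-18 generated cells, against 0.74, 0.88 and 0.71 in unstimulated cells, a change of -1.60 ± 0.10. Cd244a read -0.72, -0.71 and -0.47 in IL-18 generated cells and 0.47, 0.90 and 0.67 in unstimulated cells, a change of -1.31 ± 0.12. Ly9 and Slamf7 encode CD229 and CRACC, which each bind their own kind. Ly9 read -0.95, -1.04 and -0.60 in IL-18 generated cells and 0.75, 0.77 and 0.60 in unstimulated cells (-1.57 ± 0.11). Slamf7 read -0.72, -1.07 and -0.53 in IL-18 generated cells and 0.53, 0.76 and 0.63 in unstimulated cells (-1.42 ± 0.13). None of these 4 genes overlapped between groups, nor did 48.6% of all genes tested.

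Slamf8 and Slamf9, known mainly from myeloid cells, changed by -0.99 ± 0.15 and -0.54 ± 0.11. Both were highest in unstimulated replicate 3, where Slamf8 read 1.00 and Slamf9 0.56. Slamf1 changed by -0.34 ± 0.10, and its call was lost without IL-18 replicate 1 or without unstimulated replicate 1 or 3 (highest limma adjusted p 0.0744). Slamf6, which encodes Ly108, read 0.32, -0.01 and 0.42 in IL-18 generated cells, against 0.01, -0.47 and -0.15 in unstimulated cells. Those groups overlapped, by IL-18 replicate 2 and unstimulated replicate 1. The change of 0.45 ± 0.14 had a limma adjusted p of 0.0281, and 5 of 14 alternatives ended the call, with a highest value of 0.102.

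Both measured adaptors fell with the receptors, where 16.7% of all genes tested fell. Sh2d1b1, which encodes EAT-2, read -0.49, -0.40 and -0.42 in IL-18 generated cells and 0.40, 0.75 and 0.79 in unstimulated cells, a change of -1.08 ± 0.11. Sh2d1a, which encodes SAP, changed by -0.69 ± 0.12 (limma adjusted p 0.000853). The related gene Sh2d1b2 did not pass, at 0.09 ± 0.29.

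All 4 nectin-binding receptors had changes above 0, and 2 of them rose, where 19.7% of all genes tested rose. Tigit, the inhibitory member, read 0.87, 0.60 and 0.86 in IL-18 generated cells, against -0.87, -0.85 and -0.60 in unstimulated cells. The change was 1.55 ± 0.10, or 2.93-fold (limma adjusted p 1.28e-06), and the call held in all 14 alternatives. Cd226, its activating counterpart, read 0.15, 0.14 and 0.19 in IL-18 generated cells and -0.14, -0.30 and -0.46 in unstimulated cells. That change, 0.46 ± 0.09, was smaller and held in all 14 alternatives. Neither gene overlapped between groups, nor did 48.6% of all genes tested. Cd96 (0.16 ± 0.10, limma adjusted p 0.272) and Crtam, the receptor for the nectin-like protein CADM1 (0.20 ± 0.10, limma adjusted p 0.14), did not pass, and both overlapped between groups. The Tigit promoter, of the strongest gene among those that rose, lies at chr16:43664135-43664434 on the minus strand of GRCm38.p6 and holds 1 Runx match, in capitals.
Tigit: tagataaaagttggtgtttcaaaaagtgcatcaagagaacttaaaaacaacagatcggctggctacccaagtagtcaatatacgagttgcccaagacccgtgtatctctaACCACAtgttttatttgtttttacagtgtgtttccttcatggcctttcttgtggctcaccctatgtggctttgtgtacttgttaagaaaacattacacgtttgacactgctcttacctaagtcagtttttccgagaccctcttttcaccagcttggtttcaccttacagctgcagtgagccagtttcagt

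**Figure D3:**
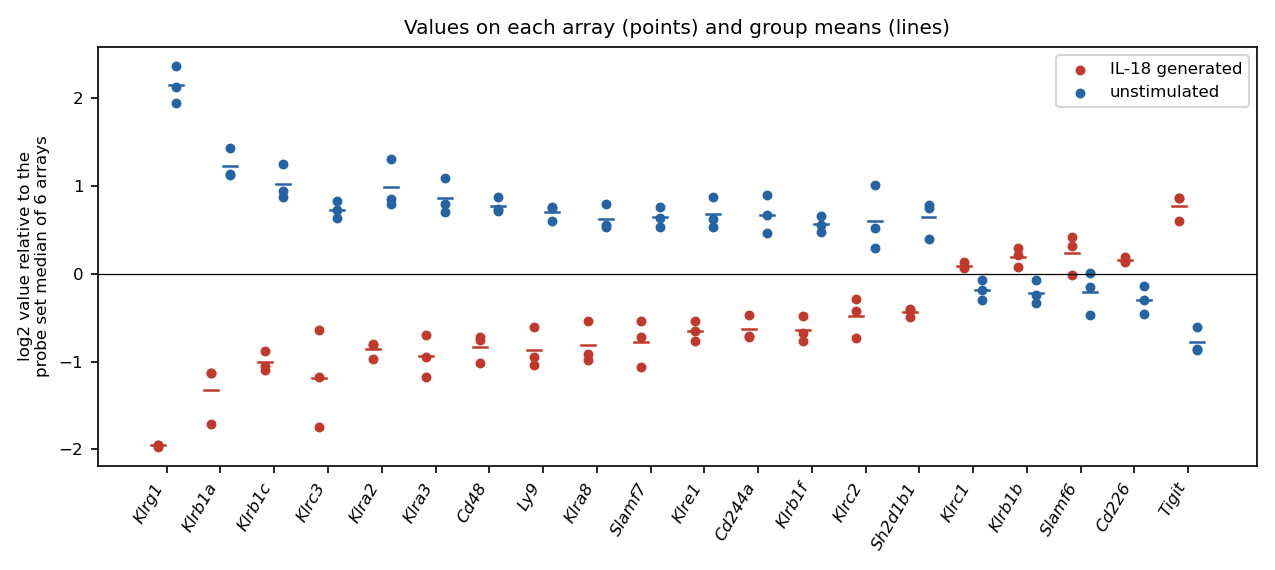
Value on each array (points) and group mean (line) of the 15 members that fell by at least 2-fold and the 5 that rose, in log2 relative to the probe set median, with IL-18 generated arrays left of unstimulated ones. Groups separate for each gene except Slamf6 (48.6% of all genes tested separate), and Klrg1 has the widest gap.

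The remaining receptors divided into 2 that fell and 3 that did not pass, where 16.7% of all genes tested fell. Ncr1 encodes the activating receptor NKp46 and read -0.54, -0.55 and -0.40 in IL-18 generated cells, against 0.40, 0.62 and 0.43 in unstimulated cells (-0.98 ± 0.09). Fcgr3, which encodes the antibody receptor CD16, read -0.27, -0.19 and -0.62 in IL-18 generated cells and 0.29, 0.43 and 0.19 in unstimulated cells (-0.67 ± 0.12). CD16 is also found on myeloid cells. Cd160, a receptor for HVEM, varied within both groups. It read -0.10, -0.78 and 0.20 in IL-18 generated cells and 0.34, -0.14 and 0.10 in unstimulated cells (-0.33 ± 0.21, limma adjusted p 0.261). The inhibitory receptor genes Havcr2 (-0.08 ± 0.20) and Lag3 (0.00 ± 0.17) had changes smaller than their SE, and the sign of each turned when some arrays were left out. Havcr2 read 0.20, -0.02 and 0.02 in IL-18 generated cells and -0.21, -0.05 and 0.71 in unstimulated cells, so that unstimulated replicate 3 alone lay high.

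Genes that carry the receptors' signals were looked at as a list of 21 measured partners, of which 16 fell and 5 did not pass (median -0.69). The list also holds Cd84, itself a SLAM family receptor and not a member, which is counted among those that fell (-0.78 ± 0.11). Over all genes tested, 16.7% fell. Tyrobp, which encodes DAP12, the adaptor of activating Ly49 and NKG2C receptors, fell most, with -1.43 ± 0.08. Next were Lat, a scaffold (-1.33 ± 0.09), and Cd247, the zeta chain that pairs with NKp46 (-1.32 ± 0.08). Hcst, which encodes DAP10, the partner of NKG2D, changed by -0.73 ± 0.11, and Fcer1g, which serves CD16, NKp46 and NKR-P1C, by -0.69 ± 0.08. Of the 3 phosphatase genes on the list, Ptpn6 (SHP-1, -0.53 ± 0.11) and Inpp5d (SHIP-1, -0.67 ± 0.07) fell, and Ptpn11 (SHP-2, -0.16 ± 0.07, limma adjusted p 0.121) did not pass. Myeloid cells also express Tyrobp, Fcer1g, Ptpn6 and Inpp5d.

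Of 22 measured ligand genes, 3 rose, 8 fell and 11 did not pass; over all genes tested, 36.4% were called. The list covers molecules that other cells show to these receptors and that lymphocytes can carry too. The listed genes H2-K1, H2-D1, H2-T23 (Qa-1), Raet1e, Ulbp1, H60c and Clec2f were not measured. The counts therefore hold no MHC class I heavy chain gene. Clec2i, which encodes the NKR-P1F ligand Clr-g, rose by 1.47 ± 0.12. Pvr, the CD155 ligand shared by TIGIT, CD226 and CD96, rose by 1.14 ± 0.10, so that receptor and ligand genes rose together for TIGIT and CD226. Lgals3, a galectin, rose by 1.05 ± 0.17. The second ligand of TIGIT and CD226, Nectin2, did not pass (-0.23 ± 0.10). For NKR-P1B the directions were opposite, since the gene of its ligand Clr-b, Clec2d, changed by -0.59 ± 0.14 while Klrb1b rose. For NKR-P1F they were opposite the other way, with Klrb1f lower and Clec2i higher.

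Among the ligand genes that fell, Ceacam1, a ligand described for TIM-3, had the largest change, at -5.39 ± 0.15. Cdh1, the E-cadherin ligand of KLRG1, changed by -1.79 ± 0.23 and Nectin1 by -0.84 ± 0.13. Without IL-18 replicate 1 the count of ligand genes that fell was 5.

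**Figure D4:**
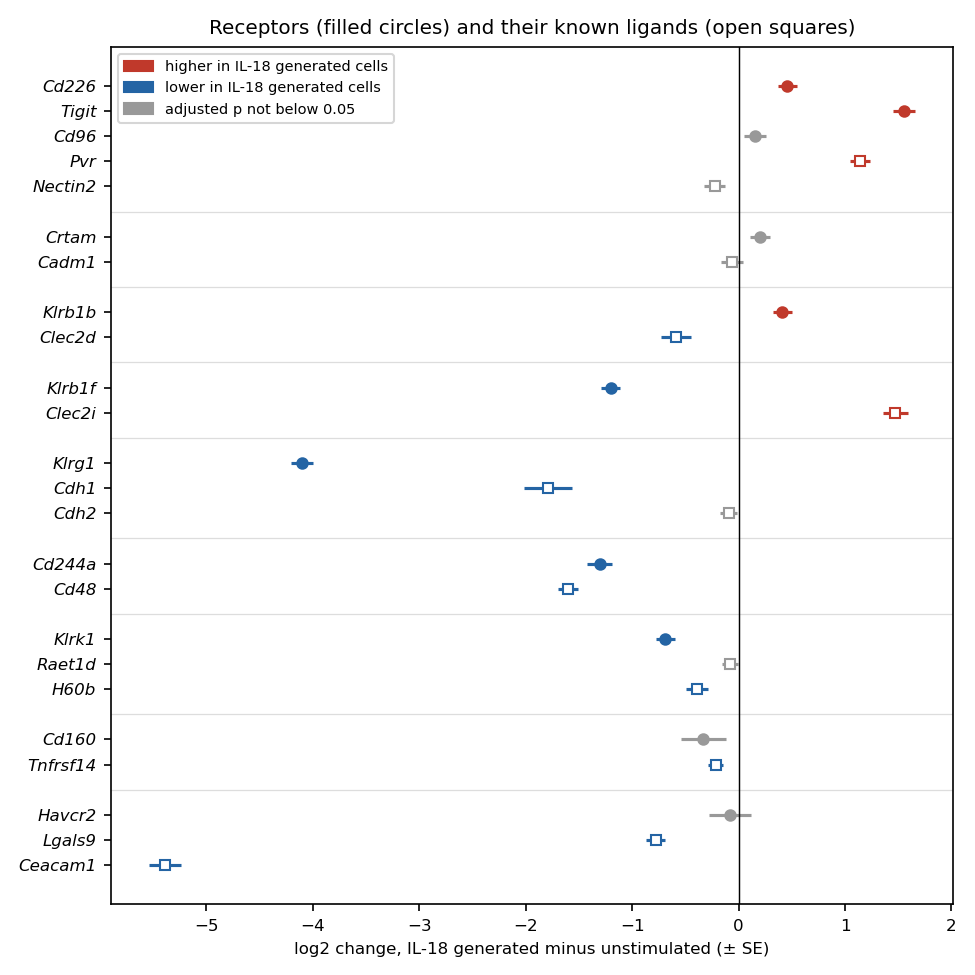
Log2 change (IL-18 generated minus unstimulated, horizontal axis, with SE from 3 arrays per group) of receptors (filled circles) and of ligands known to bind them (open squares), in blocks separated by grey lines. Tigit, Cd226 and Pvr lie right of 0 together, Cd244a and Cd48 lie left of it together, and Klrb1b and Clec2d lie on opposite sides.

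Markers of other blood cells moved between the same arrays. For comparison, 16.7% of all genes tested fell and 19.7% rose. All 8 measured monocyte and macrophage markers fell (median -3.05), with list means from -1.72 to -1.57 on the IL-18 arrays and of at least 1.47 on the unstimulated ones. All 9 neutrophil markers fell (median -2.88; means from -1.25 to -0.96 on the IL-18 arrays and from 1.08 to 2.52 on the unstimulated ones). The 5 basophil and mast cell markers fell too. Their means were -2.82, -0.46 and -2.86 on the IL-18 arrays and 1.76, 2.17 and 0.46 on the unstimulated ones. Among pairs of arrays from different groups, IL-18 replicate 2 and unstimulated replicate 3 lay closest together. All 5 B cell markers fell with a median of -0.42. Of 8 T cell markers, the 3 CD3 chain genes rose and 5 did not pass. Of 6 dendritic cell markers, 5 fell and 1 rose, and of 3 innate lymphoid markers measured, 2 rose (Il7r and Rora). Of 7 NK markers, a list that includes Ncr1, 6 fell and Id2 did not pass (median -0.98). Because values are relative, it cannot be said which markers were near absence. The part of these cells in the receptor changes was not tested.

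**Figure D5:**
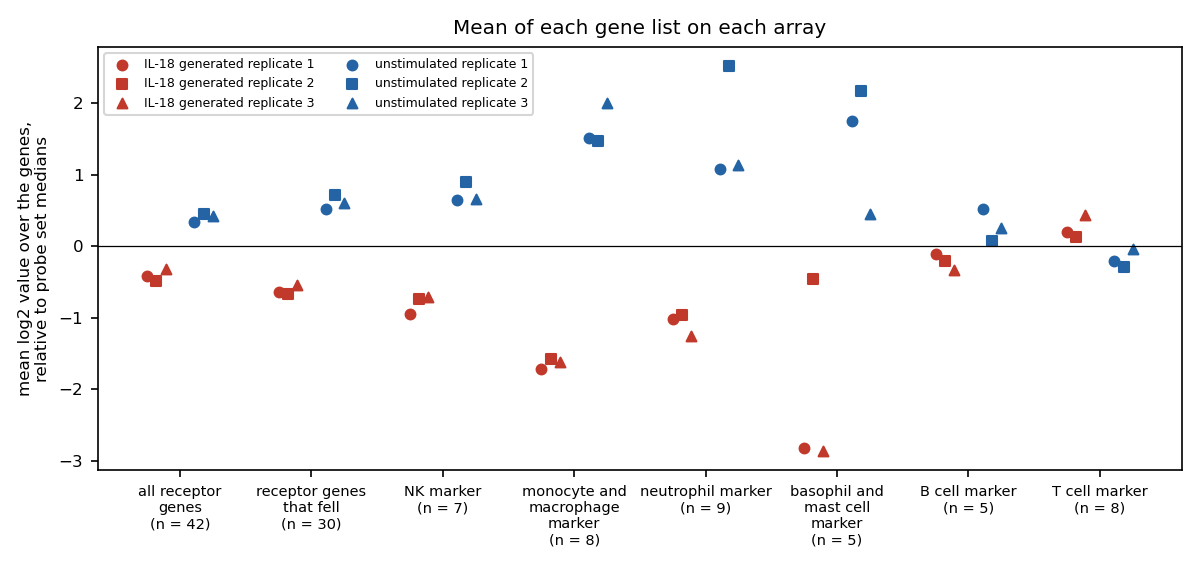
Mean log2 value of each gene list on each array, relative to probe set medians; colour gives the group and shape the replicate number. Neutrophil markers stand highest in unstimulated replicate 2 (2.52) and monocyte markers in unstimulated replicate 3, while the 30 receptor genes that fell range from 0.52 to 0.72 over the unstimulated arrays.

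The replicate that held the highest unstimulated value differed between the lists. All 5 B cell markers were highest in unstimulated replicate 1. All 8 monocyte and macrophage markers were highest in unstimulated replicate 3, whereas all 7 NK markers, all 9 neutrophil markers and all 5 basophil and mast cell markers were highest in replicate 2. Among the 30 receptor genes that fell, 21 were highest in replicate 2, 7 in replicate 3 and 2 in replicate 1. Over all genes tested, the highest unstimulated value lay in replicate 1 for 6048 genes, in replicate 2 for 6829 and in replicate 3 for 7066. The 7 highest in replicate 3 were Klra2, Klra17, Slamf8, Slamf9, Klrb1f, Klri1 and Sh2d1b1, named after their values were seen. Leaving out each array in turn left 28 to 30 members that fell.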

How the data were processed

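The log2 values of 28815 probe sets were used as the authors deposited them. The sources used here do not state how they were summarized or normalized, or their log base. They were taken as log2 from their spread (the widest range within a probe set was 7.77), and each probe set had been centred on its median over the 6 arrays (largest departure 5e-07). Array medians ran from -0.025 to 0.039, and values were not normalized again. Probe sets with 1 gene symbol in the platform annotation (21788, against 1597 with several and 5430 not listed) were averaged per gene, giving 19943 genes. The group difference was fitted over all 6 arrays, with no covariate, by lmFit and eBayes of limma 3.58.1 (R 4.3.3), with Benjamini-Hochberg adjustment over all genes and a threshold of 0.05. The procedure was tested on simulated data with independent noise and far fewer changed genes than were called here. That test checks that the procedure works and does not measure its error rate on these arrays. Gene order and promoters came from RefSeq (GRCm38.p6), and promoter windows were aligned globally, end gaps counted. Tables were made in Python 3.11.15 with pandas 2.3.3, and figures with matplotlib 3.10.9. Members, lists and roles were chosen with earlier results of these data known, and motifs and the promoters shown were chosen after the values were seen. Every member is named, as are up to 3 genes per direction of the partner and ligand lists. Further partners and ligands were named as counterparts of members, and Cd84 as a SLAM family gene. Of 22 partner genes 21 were measured, and of 29 ligand genes 22. Alternatives covered variance estimation, normalization, array weights, probe sets, the replicate number as a block, a stricter threshold and leaving out each array.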

Additional observations from a re-analysis of the deposited data

How the results depend on the processing

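Of the 42 members, 37 kept their side of the threshold in all 14 alternatives, and 35 of these their direction too. Each of the 42 had 1 probe set, so the alternatives on probe sets could not alter any member's change. They moved only its SE and adjusted p, slightly, and are hardly a check on the members. Havcr2 and Lag3, which did not pass in any alternative, changed sign. Havcr2 was at -0.08, and from -0.26 to 0.20 when 1 array was left out (above 0 without unstimulated replicate 3). Lag3 was at 0.00, -0.11 with array weights, and from -0.15 to 0.20 when 1 array was left out. The other 5 members (Klra5, Klra6, Slamf1, Klrc1 and Slamf6) lost their call in some, with the limma adjusted p given in the report. The number of members that rose was 5, 3 at an adjusted p below 0.01, and 3 to 4 when 1 array was left out. The number that fell was 30 and stayed between 27 and 30. The ligand genes that fell numbered 8, and 5 to 8 when 1 array was left out. Counts for partner genes, for members past 2-fold and for all genes stayed within 1.5 times. Deviations of same-numbered arrays from their group means correlated at 0.238, 0.007 and -0.02, and 2 of 6 arrays correlated best with their own number, so the numbers are not read as pairs. With the replicate number as a block, 30 members fell and 5 rose. The choice of members by annotation symbol alone (29 fell) and without Klrb1c (29 fell) was added after the data were seen. The count of members whose groups do not overlap uses no fit and was recomputed only where values or arrays changed, giving 32 to 36. Leaving out an array cannot lower that count, so those alternatives are no check on it. The 3 arrays per group limit what can be called, and centred values hold no signal over background, so no filter on dim probe sets was possible.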

Other observations

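A further 4 probe sets carry the symbols of several Ly49 genes at once and are in no count above. Their log2 changes, IL-18 generated minus unstimulated, were -0.94 ± 0.12, -1.94 ± 0.17, -1.77 ± 0.14 and -2.62 ± 0.19 (SE, 3 arrays per group), with limma adjusted p of at most 0.000295 over all 28815 probe sets. The deepest of them read -1.42, -1.78 and -1.04 in IL-18 generated cells, against 1.07, 1.51 and 1.04 in unstimulated cells. Each of the 4 was lower on every IL-18 array than on any unstimulated array, as were 25.7% of the genes tested.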
